A study of Rattus norvegicus with 12 samples.

Results

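Antigen presentation genes were followed in the ventricle of rats after a heart attack model with reperfusion. They are 9 genes: RT1-Ba, RT1-Bb, RT1-Da, RT1-DMa, RT1-DMb and Cd74 of the class II pathway, and B2m, Tap1 and Tap2 of the class I pathway. Members were all probe sets that the platform annotation pairs with a single gene symbol equal to one of these names, which gave 13 of the 15923 probe sets on the array and 9 of the 10412 genes with a symbol of their own. RNA came from whole ventricle, with 1 array for each of 12 rats. In the ischaemia-reperfusion (IR) groups the left anterior descending coronary artery (LAD) was occluded for 30 min and then opened again, and tissue was taken after 2 d (rats 69, 73 and 76) or 7 d (rats 44, 47 and 48). Sham rats, labelled as such, were sampled at 2 d (rats 71, 72 and 74) and 7 d (rats 80, 81 and 82). All groups hold 3 rats. The labels name no strain, sex or age and no zone of the ventricle. The bulk tissue mixes cell types, so that more cells of a type and more RNA per cell cannot be told apart.

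MHC class II molecules are pairs of an alpha and a beta chain that carry peptides of ingested proteins to the surface of macrophages, dendritic cells and B cells, where helper T cells read them. RT1 is the name of the rat MHC: RT1-Ba and RT1-Bb encode the alpha and beta chains of RT1-B, the counterpart of human HLA-DQ, and RT1-Da the alpha chain of RT1-D, the counterpart of HLA-DR. Cd74 is the invariant chain, which fills the groove of a new class II molecule until it reaches the endosome, and RT1-DMa with RT1-DMb form DM, which removes the last fragment of Cd74 so that a peptide can bind. MHC class I molecules present peptides made inside the cell and are found on nearly all nucleated cells. B2m is the light chain of class I, and Tap1 and Tap2 together form the transporter that pumps peptides into the endoplasmic reticulum for it. Class II genes are switched on by the coactivator CIITA, which acts through factors bound at an X box and a Y box before the gene, and interferon gamma raises genes of both pathways.

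Most of these genes are neighbours. By RefSeq's genes of the GRCr8 assembly, 7 of the 9 lie within a run of 12 consecutive coding genes on chromosome 20, in the order RT1-Da, RT1-Db2, RT1-Db1, RT1-Ba, RT1-Bb, RT1-DOb, Tap2, Psmb8, Tap1, Psmb9, RT1-DMb and RT1-DMa. B2m lies on chromosome 3 and Cd74 on chromosome 18. RefSeq promoter windows of GRCr8, from 250 bases before to 50 bases after the annotated start, were at hand for 8 members, all but RT1-DMb. They are shown for 6 members because each holds a motif searched here, in capitals: the X box and Y box in the first 3 windows, the Y box in that of RT1-Ba, and in the other two the interferon-stimulated response element, the site of interferon regulatory factors. Each runs 5′ to 3′ on the strand of its gene.
RT1-Da, chr20:4515165-4515464, + strand: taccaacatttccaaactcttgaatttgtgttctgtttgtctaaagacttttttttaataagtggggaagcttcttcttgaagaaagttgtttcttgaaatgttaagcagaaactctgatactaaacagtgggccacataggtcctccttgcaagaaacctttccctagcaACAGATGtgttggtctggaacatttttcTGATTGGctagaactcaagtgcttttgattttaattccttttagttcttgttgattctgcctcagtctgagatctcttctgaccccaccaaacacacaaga
RT1-DMa, chr20:4712286-4712585, - strand: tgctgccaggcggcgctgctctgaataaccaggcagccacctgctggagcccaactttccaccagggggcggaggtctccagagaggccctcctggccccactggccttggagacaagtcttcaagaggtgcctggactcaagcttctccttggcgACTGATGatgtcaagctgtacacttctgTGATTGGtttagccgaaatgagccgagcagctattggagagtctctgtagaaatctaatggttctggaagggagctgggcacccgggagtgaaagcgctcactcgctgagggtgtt
RT1-Bb, chr20:4604069-4604368, - strand: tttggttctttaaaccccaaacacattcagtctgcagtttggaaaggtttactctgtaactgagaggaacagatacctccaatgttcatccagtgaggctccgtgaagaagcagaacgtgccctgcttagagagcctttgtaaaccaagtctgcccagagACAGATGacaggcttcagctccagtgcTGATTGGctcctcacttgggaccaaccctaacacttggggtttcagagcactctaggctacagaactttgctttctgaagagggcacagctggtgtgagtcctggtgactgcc
RT1-Ba, chr20:4576807-4577106, + strand: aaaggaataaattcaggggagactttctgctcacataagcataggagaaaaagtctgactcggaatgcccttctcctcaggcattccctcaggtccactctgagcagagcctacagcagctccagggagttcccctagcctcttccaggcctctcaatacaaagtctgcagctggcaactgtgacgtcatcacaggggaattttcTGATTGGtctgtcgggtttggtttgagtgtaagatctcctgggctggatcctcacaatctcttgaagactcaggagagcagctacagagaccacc
B2m, chr3:129549080-129549379, + strand: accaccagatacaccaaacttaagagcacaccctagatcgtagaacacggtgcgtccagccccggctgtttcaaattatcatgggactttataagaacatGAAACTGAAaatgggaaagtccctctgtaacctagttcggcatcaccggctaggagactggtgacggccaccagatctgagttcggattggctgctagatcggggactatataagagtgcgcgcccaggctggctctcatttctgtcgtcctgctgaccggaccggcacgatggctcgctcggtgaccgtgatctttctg
Tap2, chr20:4652247-4652546, - strand: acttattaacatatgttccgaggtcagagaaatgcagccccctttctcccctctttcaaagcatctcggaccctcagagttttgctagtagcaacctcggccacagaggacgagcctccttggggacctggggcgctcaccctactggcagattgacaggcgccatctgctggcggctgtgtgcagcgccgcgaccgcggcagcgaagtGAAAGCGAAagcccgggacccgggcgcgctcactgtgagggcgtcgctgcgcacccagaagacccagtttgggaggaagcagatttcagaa

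The letters TGATTGG (Y box) were found in 4 of the 8 windows, those of RT1-Da, RT1-DMa, RT1-Bb and RT1-Ba, and in 7.06% of all 33469 promoter windows of the table, both strands searched. The letters ACNGATG (the end of the X box) were found in 3 of the 8, RT1-Da, RT1-DMa and RT1-Bb, against 10.2% of all windows. Both together were found in these 3 and in 0.726% of all windows, 243 in number. The X box letters began 79 bases before the start in RT1-Da, 94 in RT1-DMa and 90 in RT1-Bb, and the bases between it and the Y box numbered 21, 21 and 20. The same spacing lay between 18 and 20 bases in the other class II genes RT1-Db1, RT1-Db2 and RT1-DOb. The letters GAAANNGAA (interferon-stimulated response element) were found in B2m, Tap1 and Tap2, and in 9.71% of all windows. The match in Tap1 read TTCGGTTTC, that is, it lay on the opposite strand. Among other genes of the pathway the same letters were found in Psmb8 and Tapbp, and the Y box letters in RT1-DOa and, beginning 21 bases after the start, in Psmb9. The Cd74 window held none of the 3 motifs as spelled, and the RT1-Ba window did not hold the X box letters as spelled. This says only that these letters are absent there, and an X box of another spelling was not searched for. None of the 3 patterns overlap one another in the member windows. They were spelled after the windows had been read, and a match is a description of the sequence.

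**Figure D1:**
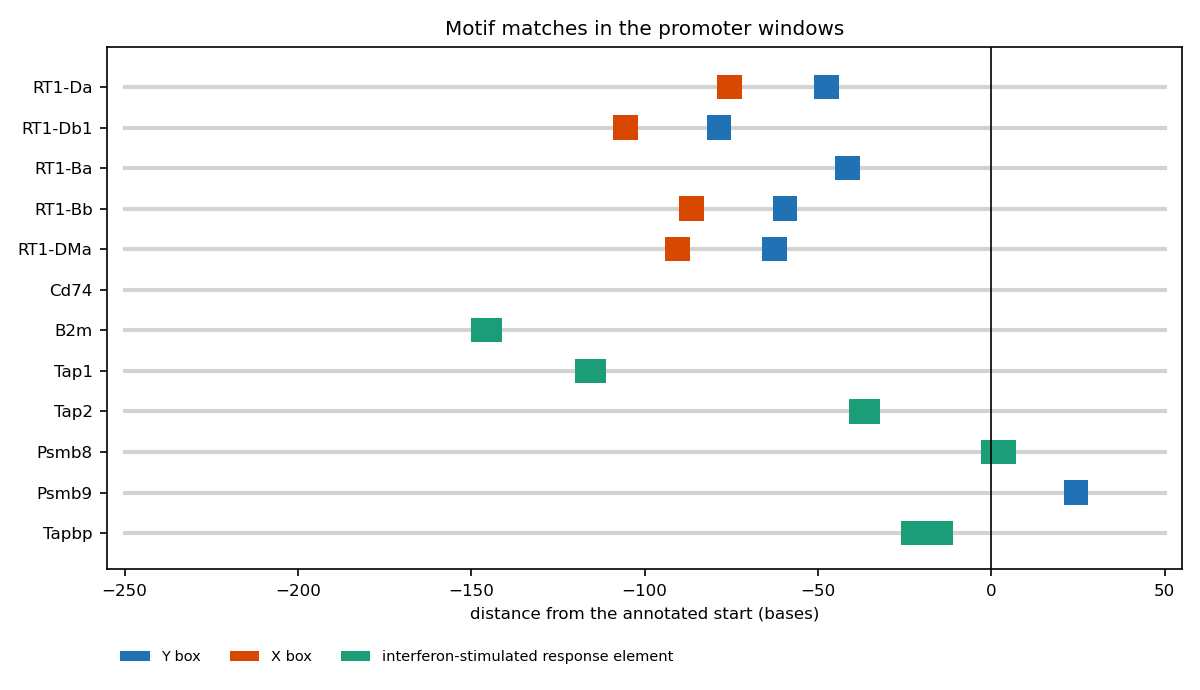
Matches to 3 motifs in the promoter windows of 12 antigen presentation genes; the horizontal axis is the distance from the annotated start in bases, and each grey line is the window from 250 bases before to 50 bases after it. RT1-Da, RT1-Db1, RT1-Bb and RT1-DMa share an X box followed by a Y box, and B2m, Tap1 and Tap2 hold the interferon-stimulated response element.

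Values are the deposited signals, an intensity on a linear scale set per array to a common mean. Changes are differences of log2(signal + 195), tested with limma over the 10527 probe sets that passed a filter on dim signals, and a probe set was called at a Benjamini-Hochberg adjusted p under 0.05. Of the 13 member probe sets 12 were tested. The other, 1375379_at of Tap1, had signals of 117.5 to 267.3 and lay above the filter level on 0 arrays. Probe set 1371065_at of RT1-Bb and 1388149_at of Tap1 were above it on 3 arrays, 1371033_at of RT1-Bb on 7, Tap2 on 8, and the other 8 on all 12. Signals of different probe sets are not compared with each other, since each has its own probes.

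IR ventricles held more RNA of the class II alpha chain RT1-Da, of the DM chain RT1-DMa and, by a single probe set, of RT1-Ba, whereas the invariant chain Cd74 and the class I members showed no called difference. Averaged over both days, RT1-Da was 1.82-fold higher in IR than in sham (log2 change 0.87 ± 0.18 SE, limma adjusted p = 0.00421). RT1-DMa was also 1.82-fold higher (0.86 ± 0.17 SE, limma adjusted p = 0.00359), and 1377334_at of RT1-Ba was 1.64-fold higher (0.71 ± 0.24 SE, limma adjusted p = 0.0409). These 3 of the 12 tested member probe sets were called higher and 0 lower, beside 12.4% of all tested probe sets called higher and 22.9% in either direction. The median change of all 12 was 0.24, against 0.01 over all tested probe sets. The call of 1377334_at was lost in 13 of 19 other settings (limma adjusted p from 0.0119 to 0.196), among them every setting that left out a single rat other than 74, 81 or 44, while RT1-Da and RT1-DMa passed in all 19.

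Taken day by day, few members passed. At 2 d, 0 of the 12 were called, beside 2.47% of all tested probe sets; 2 had an unadjusted limma p under 0.05, where 21.5% of all did. At 7 d, 1 was called, RT1-DMa, beside 6.22% of all called higher and 12.1% in either direction; 3 had an unadjusted p under 0.05, where 28% of all did. Counted by arrays, all 3 IR rats lay above all 3 sham rats for 2 of the 12 at 2 d, where 13.9% of all tested probe sets did, and for 3 of the 12 at 7 d, where 16.6% did. The median change was 0.33 at 2 d and 0.20 at 7 d, against 0.00 and 0.01 over all tested probe sets, and 11 and 8 of the 12 changes were above 0.

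**Figure D2:**
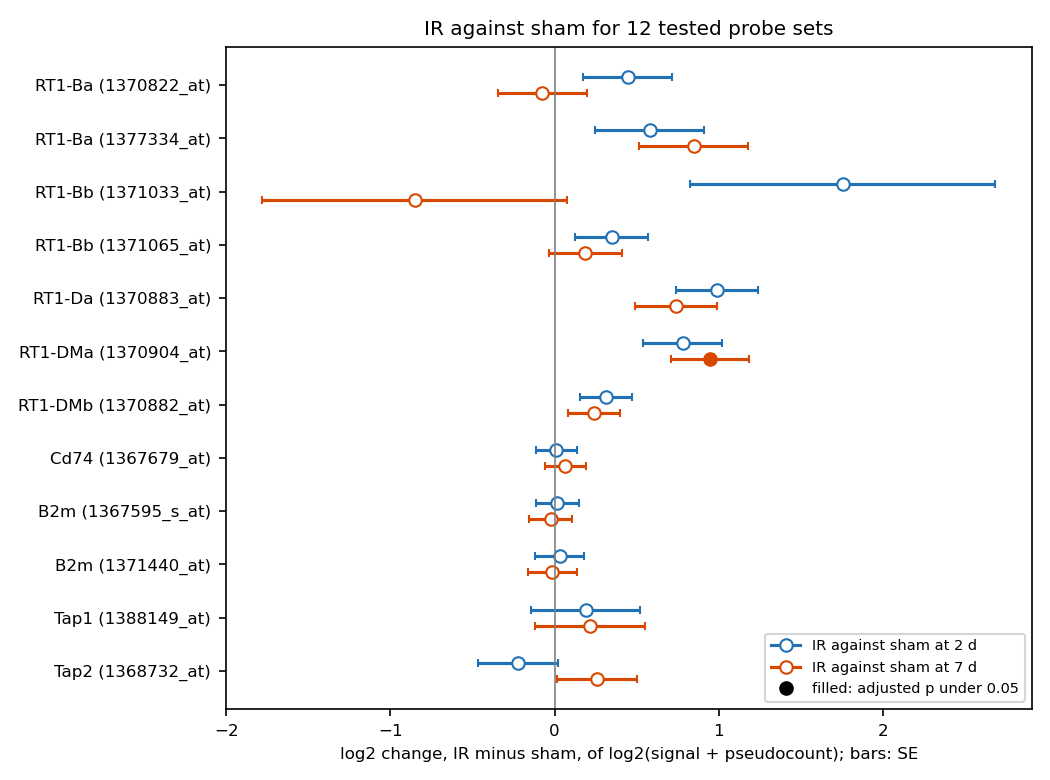
Log2 change from sham to IR (horizontal axis, on the log2(signal + 195) scale) of the 12 tested member probe sets at 2 d (blue) and 7 d (orange), with SE bars; filled points passed the test. RT1-Da and RT1-DMa lie between 0.74 and 0.99 at both days, Cd74 and B2m close to 0, and 1371033_at of RT1-Bb has an SE of 0.93.

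RT1-Da, the alpha chain of RT1-D, stood higher in IR and at the later day. Its signal was 3896, 4410 and 7264 in the 2 d sham rats and 14849, 7436 and 9405 in the 2 d IR rats (in the order of the rat numbers above). At 7 d it was 12458, 10695 and 9540 in sham and 16614, 23594 and 15506 in IR. Groups did not overlap at either day, but at 2 d the lowest IR rat, 73, stood only just above the highest sham rat, 74. The 2 d change was 0.99 ± 0.25 SE, a 1.99-fold difference that missed the threshold (limma adjusted p = 0.0503). The 7 d change was 0.74 ± 0.25 SE, or 1.67-fold (limma adjusted p = 0.0667). Over the other settings the adjusted p ran from 0.0264 to 0.259 at 2 d and from 0.0314 to 0.223 at 7 d, so that the call at a single day depends on the setting. Without rat 73, whose signal was the lowest of the 2 d IR rats, the 2 d change was 1.21 with an adjusted p of 0.0264, and without sham rat 74 it was 1.25 with 0.0338. The 2 d change was also called without 7 d sham rat 82 (limma adjusted p = 0.0401), and the 7 d change without 2 d sham rat 74 (0.0452) or 2 d IR rat 69 (0.033), rats that enter these comparisons only through the shared estimate of the spread.

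The days themselves differed in the same gene. All 7 d sham rats had more RT1-Da than all 2 d sham rats, by 1.09 ± 0.25 SE or 2.12-fold, which did not pass over all probe sets (limma adjusted p = 0.149) except without rats 69 and 82 together (1.18, limma adjusted p = 0.0377), 2 rats described further on. In this comparison 0.076% of all tested probe sets were called (8, or 76 without rat 82), and 7.27% had all 7 d rats above all 2 d rats. All 7 d IR rats were likewise above all 2 d IR rats, by 0.84 ± 0.25 SE (limma adjusted p = 0.0843), where 3.45% of all were called and 10.6% had all 7 d rats higher. Without IR rat 69 the latter change was 1.11 with a limma adjusted p of 0.0201, and its range over all other settings was 0.0152 to 0.307. The order of the group means of the signal was 2 d sham (5190 ± 1815, SD, n = 3), 2 d IR (10560 ± 3840), 7 d sham (10900 ± 1470) and 7 d IR (18570 ± 4385). The middle 2 of these groups overlapped. The sham comparison shares its rats with the IR comparisons of each day, so that a low 2 d sham level enters both.

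RT1-Db1 encodes the beta chain that pairs with RT1-Da. It was among the other class II genes listed for the pathway. Its probe set 1370383_s_at gave 1714, 1420 and 2390 in 2 d sham, 3063, 2846 and 2974 in 2 d IR, 4166, 2606 and 3004 in 7 d sham, and 4368, 6137 and 4241 in 7 d IR. IR rats lay above sham rats at both days without overlap, by 0.66 ± 0.19 SE at 2 d (limma adjusted p = 0.0764) and 0.57 ± 0.19 SE at 7 d (0.0696), and by 0.61 ± 0.14 SE averaged over the days, which passed (limma adjusted p = 0.00649). Like RT1-Da it was higher in all 7 d than in all 2 d sham rats (0.76 ± 0.19 SE, limma adjusted p = 0.196). By its suffix, this type of probe set can also pick up related transcripts.

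**Figure D3:**
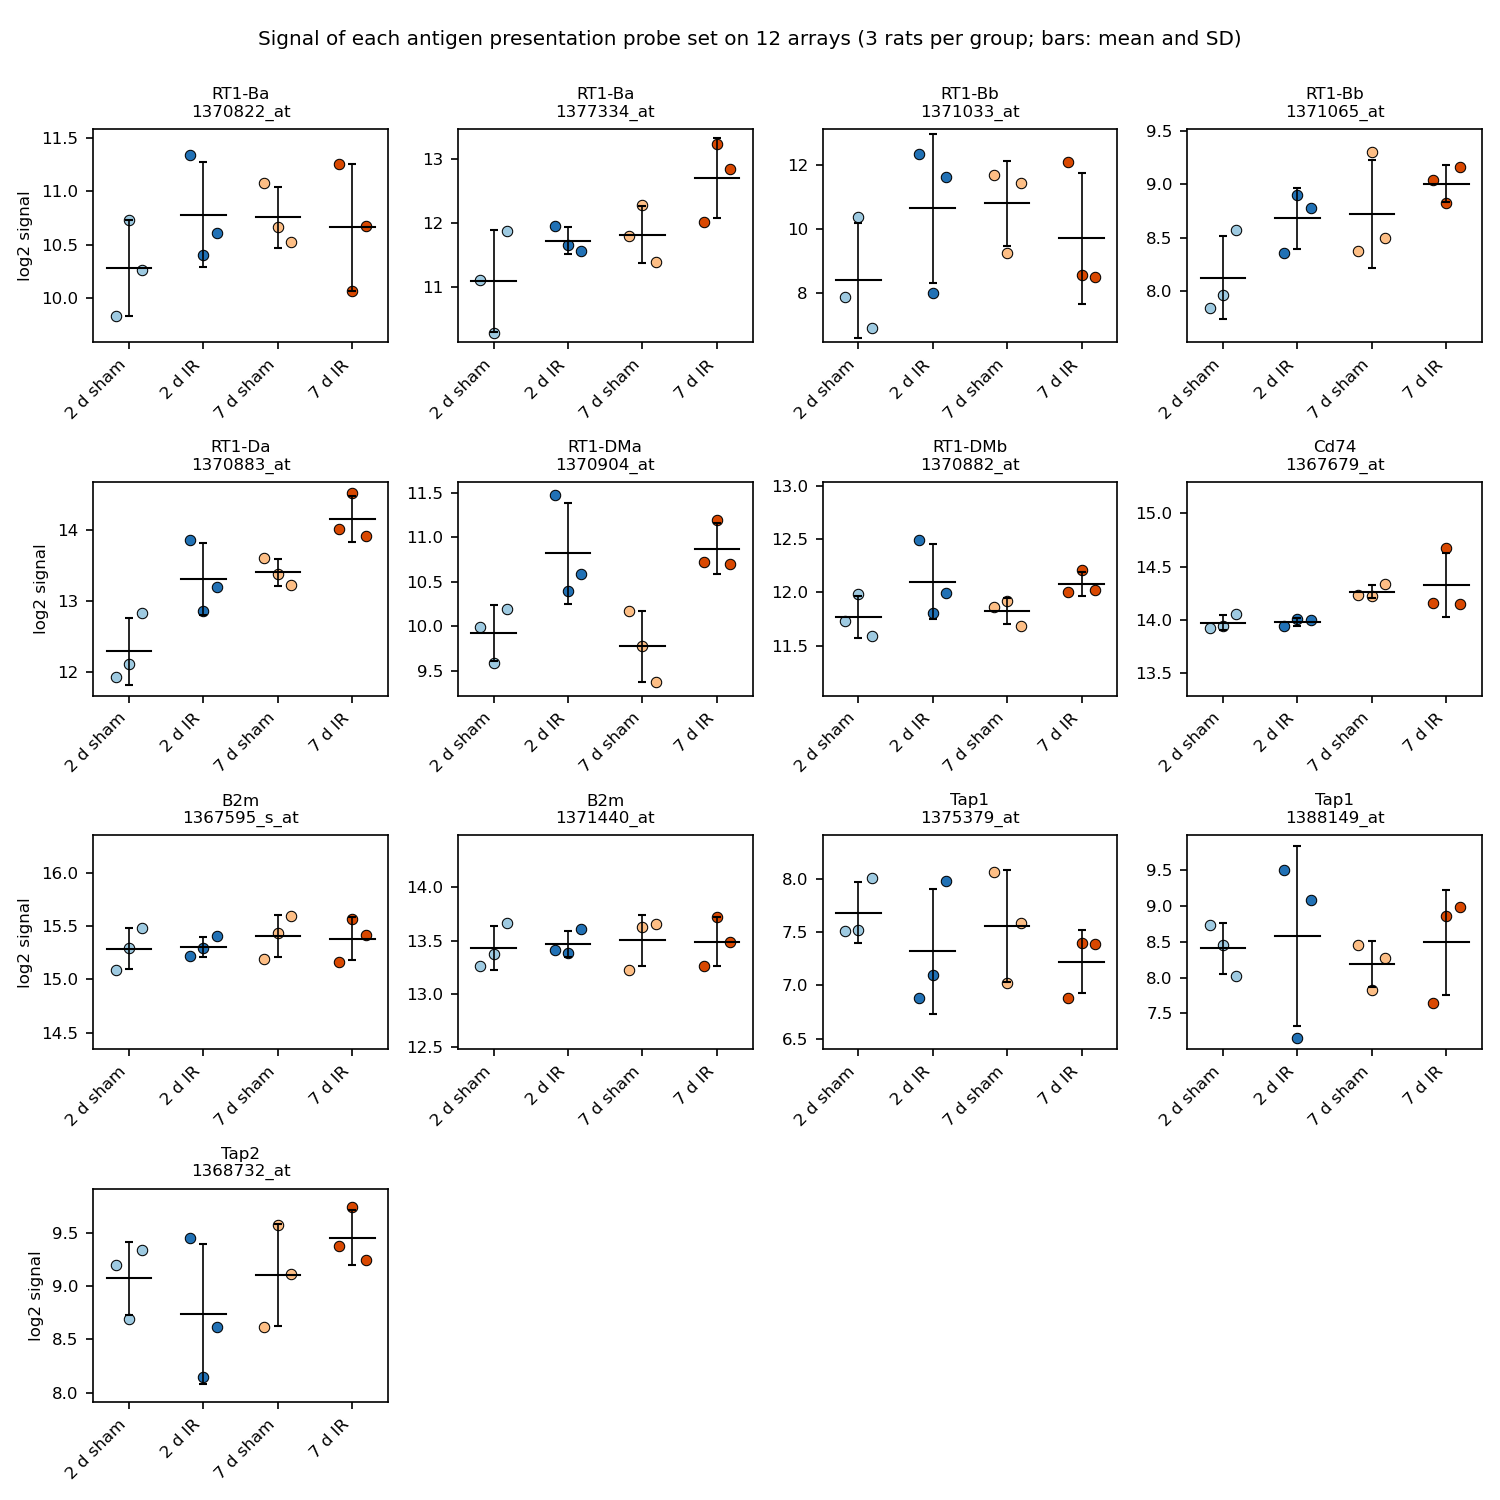
Log2 of the deposited signal (vertical axis, a different range in each panel but never under 2 log2 units) of the 13 member probe sets in the 4 groups; points are rats, in the order of the rat numbers, and bars the mean and SD of 3 rats. RT1-Da stands lowest in 2 d sham and highest in 7 d IR, RT1-DMa is high in both IR groups, Cd74 and B2m are nearly level, and 1371033_at of RT1-Bb spans several log2 units within each group.

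RT1-DMa, the alpha chain of the DM peptide editor, was higher in IR, with close levels at 2 d and 7 d. Its signal was 1021, 766 and 1172 in 2 d sham against 2835, 1349 and 1537 in 2 d IR, and 1154, 878 and 661 in 7 d sham against 1690, 2350 and 1656 in 7 d IR. No IR rat overlapped a sham rat of its day. The change was 0.78 ± 0.24 SE or 1.72-fold at 2 d, which was called only without IR rat 73 (limma adjusted p = 0.0852, and 0.0468 without that rat), and 0.95 ± 0.24 SE or 1.93-fold at 7 d, which was (limma adjusted p = 0.0222). Over the other settings the 7 d adjusted p ran from 0.00766 to 0.109: it was 0.109 without sham rat 82, 0.0512 without IR rat 44 and 0.0873 without IR rat 47. Between days the difference was -0.12 ± 0.24 SE in sham and 0.04 ± 0.24 SE in IR rats, with 95% intervals of -0.63 to 0.39 and -0.47 to 0.56.

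RT1-DMb, the beta chain of DM, differed less. Its signal was 3398, 4048 and 3089 in 2 d sham and 5767, 3592 and 4082 in 2 d IR, where IR rat 73 lay within the sham range. At 7 d it was 3732, 3864 and 3300 in sham and 4108, 4734 and 4164 in IR, without overlap. The change was 0.32 ± 0.16 SE at 2 d and 0.24 ± 0.16 SE at 7 d, and neither passed (limma adjusted p = 0.267 and 0.341). Averaged over the days it was 0.28 ± 0.11 SE, or 1.21-fold (limma adjusted p = 0.0871), which passed without 2 d IR rat 73 (0.35, limma adjusted p = 0.0331). Whether RT1-DMa and RT1-DMb differ in their change was not tested, and the 95% interval of the averaged change ran from 0.04 to 0.52 for RT1-DMb and from 0.50 to 1.23 for RT1-DMa. Over the 12 arrays the chains had a Pearson r of 0.78, given as a description of arrays that share day and surgery.

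Both genes of RT1-B had probe sets that disagreed from rat to rat. For RT1-Bb, the beta chain, 1371033_at gave 233, 1329 and 120 in 2 d sham, 5122, 253 and 3142 in 2 d IR, 3285, 610 and 2770 in 7 d sham, and 4297, 376 and 357 in 7 d IR. Every group held rats many-fold apart. The groups overlapped at both days, and the changes of 1.76 ± 0.93 SE at 2 d and -0.85 ± 0.93 SE at 7 d did not pass (limma adjusted p = 0.294 and 0.598). The difference between the days' changes was -2.61 ± 1.32 SE, with a limma adjusted p of 0.722. The other probe set, 1371065_at, gave 230, 250 and 380 in 2 d sham, 329, 479 and 440 in 2 d IR, 332, 633 and 362 in 7 d sham, and 526, 453 and 575 in 7 d IR. These signals ran from 230 to 633, and the changes of 0.35 ± 0.22 SE and 0.19 ± 0.22 SE did not pass (limma adjusted p = 0.392 and 0.629). Over the 12 arrays the pair had a Pearson r of -0.11.

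RT1-Ba, the alpha chain of RT1-B, was measured by 1370822_at and 1377334_at, with a Pearson r of -0.02 over the 12 arrays. The first gave 913, 1704 and 1233 in 2 d sham, 2597, 1352 and 1559 in 2 d IR, 2164, 1626 and 1473 in 7 d sham, and 2447, 1073 and 1634 in 7 d IR. The groups overlapped at both days (0.44 ± 0.27 SE at 2 d, limma adjusted p = 0.371, and -0.08 ± 0.27 SE at 7 d, 0.887). The second gave 2220, 1244 and 3755 in 2 d sham, 3987, 3219 and 3013 in 2 d IR, 3554, 4978 and 2684 in 7 d sham, and 4152, 9706 and 7368 in 7 d IR. Its groups overlapped at both days too, at 7 d because IR rat 44 lay below sham rat 81. Its changes were 0.58 ± 0.33 SE at 2 d (limma adjusted p = 0.337) and 0.85 ± 0.33 SE at 7 d (0.111), and all 7 d IR rats lay above all 2 d IR rats (0.94 ± 0.33 SE, limma adjusted p = 0.152).

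Single rats stood apart in both genes, in part the same ones. Rats 69, 76, 80, 82 and 44 had 1371033_at signals between 2770 and 5122, rat 72 had 1329, and the other 6 rats had 610 or less. Rat 72, the only 2 d sham rat with a high 1371033_at signal, also had the highest 1370822_at signal of its group and the lowest 1377334_at signal of all 12 rats. Rats 47 and 48, with low 1371033_at signals, had the highest 1377334_at signals of all. The lowest 1371033_at signal was that of rat 74 and the lowest 1370822_at signal that of rat 71, and rats 81 and 48, low in 1371033_at, had more 1370822_at signal (1626 and 1634) than rats 76 and 82 (1559 and 1473). Over the 12 arrays 1371033_at of RT1-Bb and 1370822_at of RT1-Ba had a Pearson r of 0.80, and 1377334_at of RT1-Ba and RT1-Da 0.85. A further probe set of RT1-Db1, 1370382_at, was too dim to be tested (16.9 to 497.0) and was singled out after its values were seen. It gave 17, 18 and 27 in 2 d sham and 446, 98 and 141 in 2 d IR, without overlap, and 264, 30 and 103 in 7 d sham and 497, 161 and 81 in 7 d IR, which overlapped. Its Pearson r was 0.74 to both 1371033_at and 1370822_at, 0.67 to RT1-Da, 0.65 to RT1-DMa and 0.60 to RT1-DMb. To the other probe sets of RT1-Ba and RT1-Bb, 1377334_at and 1371065_at, it was only 0.28 and 0.14. It was 0.12 to Cd74 and from -0.34 to 0.20 to the probe sets of B2m, Tap1 and Tap2. As background, RT1 genes differ in sequence between rat strains and, in outbred rats, between animals, and a probe of an array binds a transcript less well where the sequence differs. The labels give no RT1 types, and their part in these signals was not tested.

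**Figure D4:**
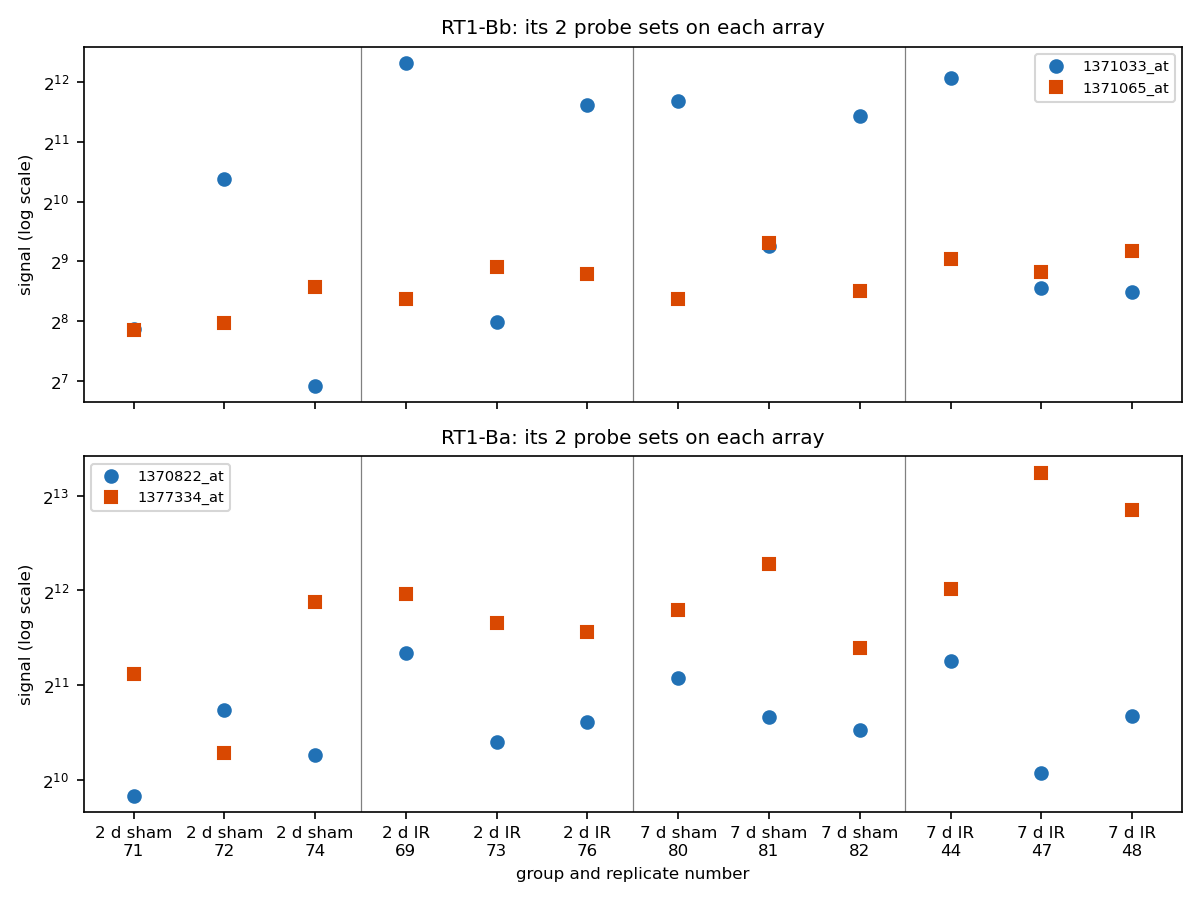
Deposited signal (vertical axis, log scale) of both probe sets of RT1-Bb (top) and of RT1-Ba (bottom) on each of the 12 arrays, ordered by group and rat number. The 1371033_at signals of RT1-Bb run from 120 to 5122 and split every group, while 1371065_at runs from 230 to 633; in RT1-Ba, rat 72 has the lowest 1377334_at signal and rat 47 the highest.

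Cd74, the invariant chain, showed no called difference between IR and sham. Its signal was 15563, 15797 and 17013 in 2 d sham and 15734, 16513 and 16424 in 2 d IR, with the groups overlapping. At 7 d it was 19243, 19182 and 20651 in sham and 18255, 26175 and 18234 in IR, where rat 47 stood above all and the other two IR rats below all sham rats. The change was 0.01 (95% interval -0.26 to 0.28) at 2 d and 0.06 (-0.20 to 0.33) at 7 d, with limma adjusted p of 0.98 and 0.782. Without rat 47 the 7 d change was -0.11 (limma adjusted p = 0.564). By day, all 7 d rats lay above all 2 d rats in sham (0.29 ± 0.13 SE, limma adjusted p = 0.499) and in IR (0.34 ± 0.13 SE, limma adjusted p = 0.175), which did not pass. RT1-Da and Cd74 were the 2 members whose days did not overlap in sham rats.

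The class I genes B2m, Tap1 and Tap2 showed no called difference in any of the 6 comparisons. B2m gave 34895 to 45635 in 2 d sham, 38016 to 43319 in 2 d IR, 37448 to 49322 in 7 d sham and 36748 to 48368 in 7 d IR with 1367595_s_at, and 9864 to 13006, 10691 to 12475, 9611 to 12930 and 9810 to 13528 with 1371440_at. All groups overlapped. The changes of 1367595_s_at were 0.02 (95% interval -0.26 to 0.29) at 2 d and -0.02 (-0.30 to 0.25) at 7 d, and those of 1371440_at were 0.03 (-0.29 to 0.35) and -0.01 (-0.33 to 0.30). None of these intervals reached beyond 0.35 in either direction. The pair of probe sets had a Pearson r of 0.94 over the 12 arrays, unlike those of RT1-Ba and RT1-Bb.

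Of the peptide transporter genes, Tap1 was near the limit of the array, and Tap2 lay above the filter level on 8 of the 12 arrays only. Tap1, by 1388149_at, gave 426, 352 and 260 in 2 d sham, 722, 143 and 544 in 2 d IR, 351, 227 and 309 in 7 d sham, and 201, 462 and 504 in 7 d IR. IR rats lay on both sides of the sham rats at both days (0.19 ± 0.33 SE and 0.22 ± 0.33 SE, limma adjusted p = 0.802 and 0.718). Tap2 gave 587, 412 and 646 in 2 d sham, 700, 284 and 392 in 2 d IR, 392, 763 and 555 in 7 d sham, and 663, 858 and 606 in 7 d IR. Its change was -0.22 ± 0.24 SE at 2 d and 0.26 ± 0.24 SE at 7 d (limma adjusted p = 0.655 and 0.532). At 7 d the 95% intervals reached 0.93 for Tap1 and 0.78 for Tap2, so that a change as large as the 0.74 of RT1-Da lay within them. At 2 d they reached 0.90 for Tap1 and 0.30 for Tap2, where the change of RT1-Da was 0.99. The log2 scale used understates changes of dim genes. The 2 d interval of Tap1 therefore cannot exclude a change in signal as large as that of RT1-Da.

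The IR change was not shown to differ between the days for any member. The test of the difference between the 7 d and 2 d changes called 0 of the 12 member probe sets, beside 0.0095% of all; 0 had an unadjusted limma p under 0.05, where 7.14% of all did. For RT1-Da the difference was -0.25 ± 0.35 SE (limma adjusted p = 0.916) and for RT1-DMa 0.17 ± 0.34 SE (0.946).

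Enzymes that prepare class II molecules were higher in IR averaged over the days. Of the 6 genes of the class II processing list, 3 rose at 2 d, 2 at 7 d and all 6 averaged over the days, beside 2.47%, 12.1% and 22.9% of all tested probe sets called in either direction. None was lower, and the median changes were 0.65, 0.47 and 0.56, against 0.00, 0.01 and 0.01 over all tested probe sets. Ctss, cathepsin S, which cuts the invariant chain in antigen-presenting cells, gave 2172, 1755 and 3590 in 2 d sham and 8235, 5521 and 4988 in 2 d IR, and 4314, 3580 and 1739 against 9345, 6918 and 7669 at 7 d. It rose 2.43-fold at 2 d (1.28 ± 0.29 SE, limma adjusted p = 0.0383) and 2.53-fold at 7 d (1.34 ± 0.29 SE, limma adjusted p = 0.0128). Ctsl and Ctsb, further lysosomal proteases, rose at 2 d by 0.71 and 0.60 (limma adjusted p = 0.0431 and 0.0414), and Ctsb at 7 d by 0.51 (limma adjusted p = 0.0303). Lgmn, the asparagine-specific protease legumain, had 0.82 at 2 d (limma adjusted p = 0.0552) and 0.61 at 7 d (0.0782). Many calls at single days were lost when a rat was left out or the processing changed. Without IR rat 69, or without sham rat 71 or 72, 0 genes of the list passed at 2 d (Ctss, limma adjusted p = 0.211, 0.112 and 0.145), where 2 probe sets passed in all, while 1 passed without IR rat 76 and 5 without sham rat 82. At 7 d, 0 passed without IR rat 44 or sham rat 82 (Ctss, limma adjusted p = 0.0512 and 0.0591) and 1 without IR rat 47 or 48. All 3 calls at 2 d were lost without the filter on dim signals (limma adjusted p = 0.075 for each) and without the intensity trend (0.0676 for Ctss, 0.0774 for Ctsl and 0.0805 for Ctsb). At 7 d that of Ctsb was lost without the filter (limma adjusted p = 0.0544), without the trend (0.0593) and with only the arrays compared (0.0538). Averaged over the days, 5 or 6 of the 6 passed whichever rat was left out. Without rats 69 and 82 together 0 passed at 2 d, 1 at 7 d and 4 averaged.

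The tested factors that control class II transcription showed no called difference between IR and sham. Of 7 genes of that list on the array 5 were tested. In the 3 comparisons of IR with sham 0 were called, beside 2.47% of all tested probe sets at 2 d, 12.1% at 7 d and 22.9% averaged. The median changes were 0.09 at 2 d and 0.12 at 7 d. Ciita, the class II coactivator, had -0.08 at 2 d and 0.12 at 7 d (limma adjusted p = 0.846 and 0.715), with signals of 506 to 966 over all 12 rats. Rfx5, a subunit of the factor that binds the X box, had 0.23 ± 0.14 SE and 0.34 ± 0.14 SE (limma adjusted p = 0.383 and 0.137). All its 7 d IR rats lay above all 7 d sham rats, and its averaged change was 0.28 ± 0.10 SE (limma adjusted p = 0.0568). Creb1 had 0.20 ± 0.16 SE at 2 d and 0.35 ± 0.16 SE at 7 d (limma adjusted p = 0.527 and 0.178). Of 5 tested interferon gamma pathway genes, 1 rose at 7 d and 3 averaged over the days, beside 12.1% and 22.9% of all tested probe sets called. The averaged calls were Jak2 (0.61, limma adjusted p = 0.014), Ifngr1 (0.44, limma adjusted p = 0.017) and Irf1 (0.40, limma adjusted p = 0.00778). The gene called at 7 d was Irf1, a factor of the interferon-stimulated response element, with 1501, 1892 and 1828 in 7 d sham and 2390, 2802 and 2318 in 7 d IR (0.48 ± 0.13 SE, limma adjusted p = 0.031). That call was lost without rat 44, 47, 80 or 82 (limma adjusted p from 0.0697 to 0.114), with median centring (0.056) and with only the arrays compared (0.0571). Without rats 69 and 82 together it was lost too (0.0579), and 1 interferon gamma pathway gene passed for the averaged change. Neither of the tested costimulation genes, Icam1 and Cd83, was called at a single day. Averaged over the days both were called (0.80 and 0.35, limma adjusted p = 0.022 and 0.0255), beside 22.9% of all tested probe sets. Without rat 69 neither passed (limma adjusted p = 0.0634 and 0.0713), and without rat 48, 71, 72, 81 or 82, or with quantile normalization, 1 of them did.

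Of the class I heavy chains and class I-like genes, 11 were tested, 0 passed at 2 d, 2 rose at 7 d, beside 12.1% of all tested probe sets called, and 3 rose and 1 fell averaged over the days, beside 22.9%. RT1-A, a classical class I heavy chain added to the list after the files were seen, rose 1.78-fold at 7 d (0.83 ± 0.22 SE, limma adjusted p = 0.0246), with 528, 478 and 780 in sham and 825, 1655 and 1228 in IR. Fcgrt, the receptor that recycles IgG and albumin and also pairs with B2m, rose 1.71-fold (0.77 ± 0.17 SE, limma adjusted p = 0.0136), with 3299, 2798 and 2294 in sham and 4863, 6253 and 3786 in IR. Without IR rat 47 neither passed (limma adjusted p = 0.108 and 0.0573). RT1-A did not pass without rat 48, 80 or 81 either (limma adjusted p = 0.0614, 0.0588 and 0.0717), nor Fcgrt without rat 82 (limma adjusted p = 0.0727) or without rats 69 and 82 together (0.057). With only the arrays compared RT1-A had a limma adjusted p of 0.0515. Other heavy chains of the list had changes between -0.11 and 0.58 at 7 d, none of them called, and Cd1d1, which presents lipids, had -0.76 (limma adjusted p = 0.143). Averaged over the days RT1-A (0.63), Fcgrt (0.38) and the class I gene RT1-S3 (0.40) were called higher (limma adjusted p = 0.0103, 0.0367 and 0.0301), and Cd1d1 fell by 0.83 (limma adjusted p = 0.0196, but 0.0527 without rat 72 and 0.0502 without rat 82). Leaving out single rats gave 1 to 4 higher and 0 or 1 lower (1 higher without rat 44, 72, 76 or 81), and median centring 1 higher. Probe sets of RT1 class I genes share sequence with near-identical family members, so that their values may mix genes. The RT1-S3 call is that of 1388212_a_at, and its other tested probe sets differed. In sham and IR, 1388213_a_at had means of 1649 and 1646 at 2 d and 1542 and 1677 at 7 d. For 1388164_at they were 1686 and 1515, then 1387 and 1622, and for 1371123_x_at 1621 and 1856, then 1337 and 1835. Of 11 genes that supply and load class I peptides, 0 were called at 2 d, 0 rose and 1 fell at 7 d, and 1 rose and 1 fell averaged over the days, beside the same 12.1% and 22.9% of all. These counts take each gene by its probe set of highest mean. Another, 1368356_a_at of Erap1, had means of 822.3 in sham and 1663 in IR at 2 d, without overlap. At 7 d its means were 991.6 and 1395, with overlap. At 2 d 1371687_at and 1388442_at of Canx had 2396 and 2663, and 5743 and 7082, while 1392920_at of Pdia3 had 772.1 and 731.4. The gene that fell at 7 d was Psme1, a subunit of the proteasome activator PA28. It gave 23589, 27015 and 27892 in 7 d sham and 19045, 20014 and 17811 in 7 d IR (-0.46 ± 0.10 SE, limma adjusted p = 0.0123, and 0.0604 without sham rat 82). Averaged over the days Psme1 also fell (limma adjusted p = 0.0185, but 0.158 with quantile normalization) and Calr, the peptide-loading chaperone calreticulin, rose (0.32 ± 0.09 SE, limma adjusted p = 0.0173), both calls lost without rats 69 and 82 together (0.0867 and 0.0838). Psmb8 and Psmb9, immunoproteasome subunits encoded beside Tap1 and Tap2, had 0.35 and 0.29 at 2 d and 0.13 and 0.12 at 7 d (limma adjusted p from 0.258 to 0.685).

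**Figure D5:**
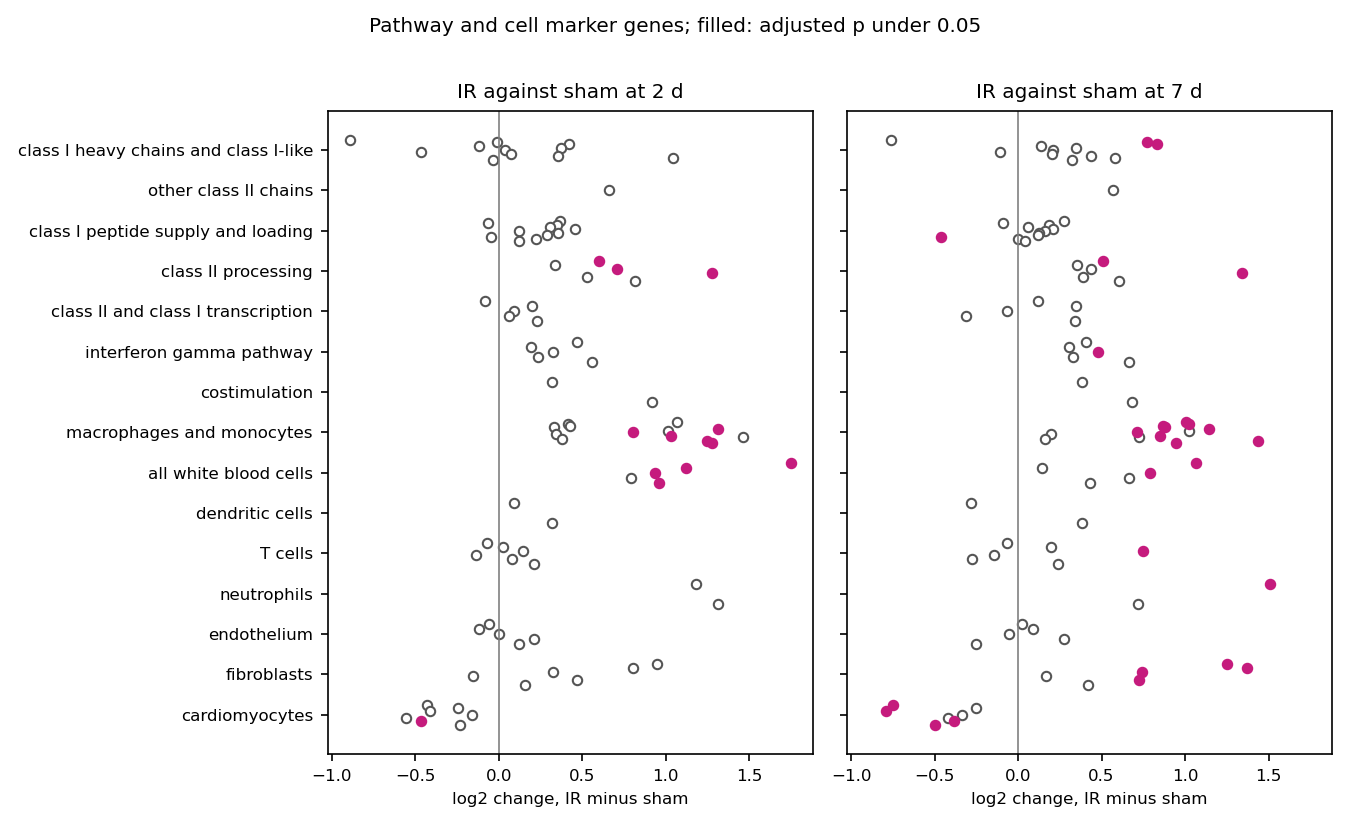
Log2 change from sham to IR (horizontal axis) of the tested genes of each pathway and cell marker list at 2 d (left) and 7 d (right); each point is a gene, by its probe set of highest mean, and filled points passed the test. Class II processing genes lie right of 0 at both days, transcription genes lie around 0, and the points furthest right are Cd53 of the white cell list at 2 d (1.75) and S100a8 of the neutrophil list at 7 d (1.51).

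Markers of several cell types moved with these differences. Of 13 macrophage and monocyte markers, all on the positive side by the probe set of highest mean, 5 rose at 2 d and 9 at 7 d, beside 2.47% and 12.1% of all tested probe sets called. Their summed signal was 21223 to 30709 in 2 d sham, 37899 to 64205 in 2 d IR, 24244 to 40250 in 7 d sham and 57591 to 77034 in 7 d IR. A further probe set of Aif1, 1369489_at, had means of 812.2 in sham and 800.9 in IR at 2 d and 756.1 and 622.4 at 7 d. That of Mpeg1, 1369427_at, had 192.6 and 383.6, then 245.3 and 750.5. Of 5 markers of all white blood cells, 4 rose at 2 d and 2 at 7 d, with summed signals of 5680 to 8286 and 13089 to 23028 at 2 d and of 6654 to 9796 and 13807 to 16215 at 7 d. Of the T cell markers 6 were tested, with 0 called at 2 d and 1 at 7 d, beside the same 2.47% and 12.1% of all. The gene called was Cd4 (0.75, limma adjusted p = 0.0234), which rat macrophages carry too. Without rat 69, 71 or 72, 0 macrophage markers and 1 white cell marker passed at 2 d, and without rat 76 3 macrophage markers did. At 7 d, 0 of either list passed without rat 82, where Cd4 was not called either (limma adjusted p = 0.104, and 0.0983 without rat 47), while 5 macrophage and 1 white cell marker passed without rat 44 and 4 and 1 without rat 47. Without rats 69 and 82 together the macrophage counts were 2 at 2 d and 4 at 7 d, and at 2 d 2 macrophage and 2 white cell markers passed without the filter on dim signals and 3 and 2 without the intensity trend. Both tested neutrophil markers, S100a8 and S100a9, were called averaged over the days (1.34 and 1.01, limma adjusted p = 0.00673 and 0.0093), with 0 called at 2 d and S100a8 at 7 d (1.51, limma adjusted p = 0.0354), a call lost without rat 44, 47, 80 or 82 (limma adjusted p from 0.0702 to 0.161), without the filter (0.0691), without the intensity trend (0.0559) and with only the arrays compared (0.0788). Their summed signal was 1465 to 2662 in 2 d sham, 3584 to 6328 in 2 d IR, 4499 to 14797 in 7 d sham and 11548 to 23778 in 7 d IR, and like RT1-Da it was higher in all 7 d than in all 2 d rats of the sham groups. Of 6 fibroblast markers 0 were called at 2 d, 4 rose at 7 d (0 without rat 44, 47 or 82, and 2 without rats 69 and 82 together or with only the arrays compared) and 4 averaged over the days. Between the days all 6 were higher at 7 d in IR (3 without rat 47) and 0 were called in sham (4 without rat 82). The summed fibroblast signal was 70621 to 80341 in 2 d sham, 83019 to 95940 in 2 d IR, 86067 to 147054 in 7 d sham and 175943 to 237394 in 7 d IR. Dendritic cell markers had 2 tested genes, Batf3 and Cd83, with 0 called at either day (0.09 and 0.32 at 2 d, -0.28 and 0.38 at 7 d). The B cell marker on the array with a symbol of its own, Cd79b, was too dim to be tested (36.7 to 137.3). Of 5 endothelial markers 0 were called, and of 7 cardiomyocyte markers 1 fell at 2 d, a call lost without any rat but 44, 73 or 82, and 4 at 7 d (1 at 7 d without rat 82, 2 without rat 44, 47 or 81). All these marker counts stand beside 2.47% of all tested probe sets called at 2 d, 12.1% at 7 d and 22.9% averaged over the days. Between the days 3.45% of all were called in IR and 0.076% in sham. The part of these cells in the class II differences was not tested.

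Of 3 measures of RNA integrity on the array, 1 separated 7 d sham from all other groups, and single libraries stood apart within their groups. The log2 ratio of the 3′ to the 5′ probe set of Actb, a sign of RNA integrity, was 0.39 to 0.83 in 7 d sham, against 0.11 to 0.23 in 7 d IR and 0.13 to 0.31 in both 2 d groups. The same ratio of Gapdh was 0.31 to 0.44 in 7 d sham and 0.28 to 0.38 in 7 d IR, and that of Hk 0.76 to 1.21 and 0.71 to 1.00, with the groups overlapping. At 2 d Gapdh had 0.20 to 0.33 in sham and 0.25 to 0.44 in IR, and Hk 0.95 to 1.72 and 0.74 to 1.93. These ranges overlapped those at 7 d, with the highest Hk values at 2 d. On the first principal component of all tested probe sets, which held 39% of the variance, 2 d IR rat 69 (18.29) stood far from the other 2 d IR rats (-4.11 and 0.18), and 7 d sham rat 82 (-23.61) far from the other 7 d sham rats (-1.06 and -1.14). Without both, 0 member probe sets were called at 2 d and 1 at 7 d, RT1-DMa (0.78 ± 0.19 SE, limma adjusted p = 0.0363), and the averaged changes of RT1-Da and RT1-DMa still passed, while that of 1377334_at of RT1-Ba did not (0.56 ± 0.26 SE, limma adjusted p = 0.196). The part of RNA integrity in the 7 d differences and in those between the days was not tested.

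Genes were listed by a Pearson r over the 12 arrays to a mean of class II members. It was the mean of the standardised log2 values of the tested RT1-Da, RT1-Ba, RT1-Bb and Cd74 probe sets, without RT1-DMa and RT1-DMb. The pair of RT1-Ba probe sets in it had an r of -0.02 and that of RT1-Bb -0.11, so the mean is not a pattern that all of them share. The genes most like it were Lrg1, a secreted glycoprotein (0.932), Marcks, a protein kinase C substrate (0.932), S100a9, a calcium-binding protein of myeloid cells (0.931), Dmbt1, a scavenger receptor protein (0.929) and Ifitm3, an interferon-induced membrane protein (0.926). For B2m, Tap1 and Tap2 the same measure gave Scaf1 (0.891), Parp10 (0.882), the class I gene RT1-S3 by 1388213_a_at (0.853), Hdhd3 (0.804) and Stx7 (0.804). The arrays share day and surgery, and the values are a description.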

How the data were processed

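Gene expression was measured on an Affymetrix array in the ventricle of 12 rats, 3 in each of 4 groups. The authors deposited linear intensity values, 1 for each probe set and array; the submitters' processing notes name MAS5, with the version not given in the sources used here. The mean of each array without the highest and lowest 2% of probe sets was 1500.4 to 1500.5, so the deposited intensity had been scaled per array, and array medians ran from 637.3 to 719. The number of arrays limits the precision. Groups came from each sample's title and description, because the written design omits the 2 d sham group and repeats the 7 d one. No groups share replicate numbers, and no batch is given in the sources used here.

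The array holds 15923 probe sets, 57 of them controls, which were not used. A total of 10527 lay above the 40th percentile of their array on at least 3 arrays. Values were log2(signal + 195). The added 195 is the 20th percentile of an array's signals, as a median of the arrays. Folds on this scale understate changes of dim genes. Means of the 4 groups were fitted together with limma 3.58.1 (R 4.3.3, empirical Bayes with an intensity trend), two-sided, with Benjamini-Hochberg adjustment over 10527 probe sets, for 6 comparisons. Each p-value sets a difference of group means against the spread between rats, estimated over all 4 groups. The method was tested on simulated data. In the platform annotation 12789 probe sets have 1 symbol, 312 have several and 2822 are unnamed here.

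The members and the gene lists were chosen with earlier results of these data known. All member probe sets are named. Genes of the lists were picked for naming by a rule, per comparison up to 4 called genes with the largest change and up to 2 that did not pass. Not all of these are named, and several cell marker lists are given as counts. A few others are named for their role in the pathway, after their values were seen. A gene of a list with several probe sets is represented by that of highest mean. Promoter sequences came from RefSeq tables of GRCr8. Other settings changed the pseudocount, scaling, filter, trend and arrays.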

Additional observations from a re-analysis of the deposited data

How the results depend on the processing

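The direction of each member result and its side of the threshold were followed over 676 values of 34 results: 621 stayed as reported, 16 lost the call, 14 gained it and 25 changed sign, all of these from changes that had not passed. The number of members called at 2 d, 0, became 1 with quantile normalization and 0 to 2 when single rats were left out. At 7 d, 1 became 2 with quantile normalization, 2 with only the arrays of the groups compared, and 0 to 2 without single rats. Between the days, 0 became 1 in sham without rats 69 and 82, a setting chosen after seeing the data. In IR it became 1 in that setting, 1 with quantile normalization (Cd74, 0.46, limma adjusted p = 0.0324) and 0 to 1 without single rats. Signs changed for values near 0. With median centring at 2 d, B2m became -0.039 and -0.025 (1367595_s_at and 1371440_at) and Cd74 -0.047. With quantile normalization at 7 d, B2m became 0.147 and 0.045. Without rats 69 and 82, Tap1 became -0.103 at 2 d and B2m 0.067 and 0.061 at 7 d. Without single rats, 2 d values ran from -0.080 to 0.112 and from -0.051 to 0.145 for B2m, from -0.015 to 0.048 for Cd74 and from -0.103 to 0.617 for Tap1; 7 d values ran from -0.130 to 0.083 and from -0.150 to 0.099 for B2m, from -0.108 to 0.150 for Cd74 and from -0.340 to 0.189 for 1370822_at of RT1-Ba. Over all probe sets, the 260 called at 2 d became 77 without the filter and 68 without the intensity trend, and the 8 between sham days became 1 and 2 (1 to 76 without single rats, 76 without rat 82, and 83 without rats 69 and 82). Without single rats, 2 to 515 passed at 2 d (2 without rat 69, 71 or 72) and 175 to 1463 at 7 d (175 without rat 82). Median centring moved the share of higher among called probe sets from 76.2% to 64.1% at 2 d and from 54.1% to 43.5% for the averaged change. The causes were not tested. No paired analysis was possible because the groups share no replicate numbers. Dim signals limit Tap1, Tap2 and 1371065_at of RT1-Bb.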
